A study of Mus musculus with 8 samples.

Results

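Liver RNA from female (XX) mice homozygous for a small deletion that removes the Lbr start codon (NT-KO, for N-terminal knockout) was compared with liver RNA from female mice that carry the intact gene (WT). Reads had been counted for 49671 genes in 8 libraries, and the genes described here are the 13162 that reached at least 1 CPM (counts scaled to a library of 1e6) in at least 2 of them. Without 45 genes for rRNA, miRNA or mitochondrial transcripts, 13117 genes were tested, of which 12787 met the filter within the 4 female libraries and 330 only with the help of male libraries. The comparison rests on 4 libraries, 2 from female WT and 2 from female NT-KO. The 2 male WT and 2 male NT-KO libraries served to estimate the spread and to ask whether a difference was also seen in males. The labels give C57BL/6 as the strain of all mice, which were past weaning, and the livers were flash frozen. The deletion was made with CRISPR/Cas9 and came from 1 male founder. This male was crossed to C57BL/6N females, and heterozygotes among the offspring were then intercrossed. All NT-KO livers therefore carry 1 founder allele and the chromosome segment around it. The labels number the replicates and do not say that each is a separate animal, so p-values measure only the spread between these samples. The female libraries held 51983144 and 64396291 counts in the WT pair and 54424067 and 63590534 in the NT-KO pair, so that 3 counts, the most that a count of 0 allows, correspond to 0.0466 to 0.0577 CPM without TMM scaling, by counting error alone.

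LBR, the lamin B receptor, is a protein of the inner nuclear membrane. Its N-terminal part lies in the nucleus and binds B-type lamins and heterochromatin proteins, while its membrane-spanning C-terminal part is a sterol reductase of cholesterol synthesis. Loss of LBR in granulocytes gives the under-lobed nuclei of the Pelger-Huet anomaly, and LBR has been proposed to tether the Xist-coated inactive X chromosome to the nuclear lamina. The female comparison therefore addresses whether the livers of XX animals that lack the start of LBR show altered expression of X-linked genes, and which other genes differ.

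The deletion begins in the first intron of Lbr and ends inside its second exon (exon 2, GRCm38 chr1:181838378-181838556, minus strand), which holds the start codon. The line below gives the first 90 coding bases of the reference transcript, read 5′ to 3′, with the 43 deleted coding bases in capitals, because they show that the annotated start codon is lost.
Lbr: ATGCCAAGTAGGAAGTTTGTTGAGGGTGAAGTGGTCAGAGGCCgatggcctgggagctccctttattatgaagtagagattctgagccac
The first ATG codon left in the reading frame is codon 118 of 626, followed by codons 149 and 230. The next line shows codon 118 in capitals with 30 bases on either side, as the nearest position at which the same frame could be read from an ATG.
Lbr codon 118: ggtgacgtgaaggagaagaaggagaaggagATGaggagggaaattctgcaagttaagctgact
Reads of the exons that remain are still counted towards Lbr, so the gene's count does not check the genotype labels.

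Lbr RNA was not lower in NT-KO livers. Its counts were 406 and 474 in the female WT pair and 744 and 918 in the female NT-KO pair, or 8.04 and 7.54 against 14.1 and 15.2 CPM after TMM scaling. Both NT-KO libraries lay above both WT libraries, and the means were 7.79 ± 0.355 and 14.7 ± 0.745 CPM (SD, n = 2 libraries each). The log2 fold change was 0.91 (SE 0.167), with an unadjusted p of 0.000556, the smallest among the genes with non-overlapping, higher NT-KO levels that averaged at least 5 CPM in a genotype. It did not pass the correction over all genes in edgeR's quasi-likelihood test (FDR = 1) and came close in the likelihood ratio test (FDR = 0.0551). In males, with other WT controls, Lbr stood at 8.66 and 7.08 CPM in WT and 13.8 and 14.7 CPM in NT-KO, which gave a log2 fold change of 0.86, and the difference between the sexes was 0.06 (SE 0.235, unadjusted p = 0.819). Lbr overlaps Dnah14 and Gm26004 in the annotation, and 8.41% of the 50-base stretches of its transcripts also occur in another gene, so reads of these genes cannot be told apart where they overlap unless the strand was used in counting.

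Few genes differed between the female genotypes by more than the spread between replicates. A gene was called differentially expressed (a DEG) at an FDR up to 0.05 with a change of more than 1 on the log2 scale in either direction. Of the 13117 genes, 1 was a DEG in edgeR's quasi-likelihood F-test (0.00762% of those tested), the chemokine receptor gene Ccr3. The likelihood ratio test of the same fit, which takes the estimated dispersion as known, gave 11 DEGs (0.0839%), of which 5 were upregulated and 6 downregulated. The upregulated genes Eif2s3y and Mup-ps6 reached the filter only through the male libraries, and with the filter met in the female libraries the same test gave 9 DEGs, 3 upregulated and 6 downregulated. DESeq2 gave 5, namely Ccr3 among the upregulated and A2ml1, Mug2, Clec2h and Gm45769 among the downregulated genes. At an unadjusted quasi-likelihood p under 0.05 stood 114 genes that were higher (0.869%) and 89 that were lower (0.679%) in NT-KO. Together these are 1.55% of the genes tested, below the 5% that evenly spread p-values would give, and the same fit placed 11.5% of genes past this level in males.

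Most genes moved little. The median log2 fold change over all genes was 0.00, and the 10th and 90th percentiles were -0.28 and 0.26. Between the 2 libraries of a genotype, 401 genes in WT and 416 in NT-KO were more than 2-fold apart. That is a difference between single libraries, and so is not the same measure as the fitted change. Both NT-KO libraries lay above both WT libraries for 1603 genes (12.2%) and below both for 1864 (14.2%). Of 9593 genes that averaged at least 5 CPM in either genotype, 62 had a fitted change over 2-fold, 39 of them higher and 23 lower in NT-KO. For 45 of these 62 the replicates of a genotype were themselves more than 2-fold apart, and 30 reached an unadjusted p under 0.05. With 2 libraries per genotype the smallest two-sided p of an exact permutation test of 1 gene is 0.333, so the p-values come from models fitted across all genes.

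**Figure D1:**
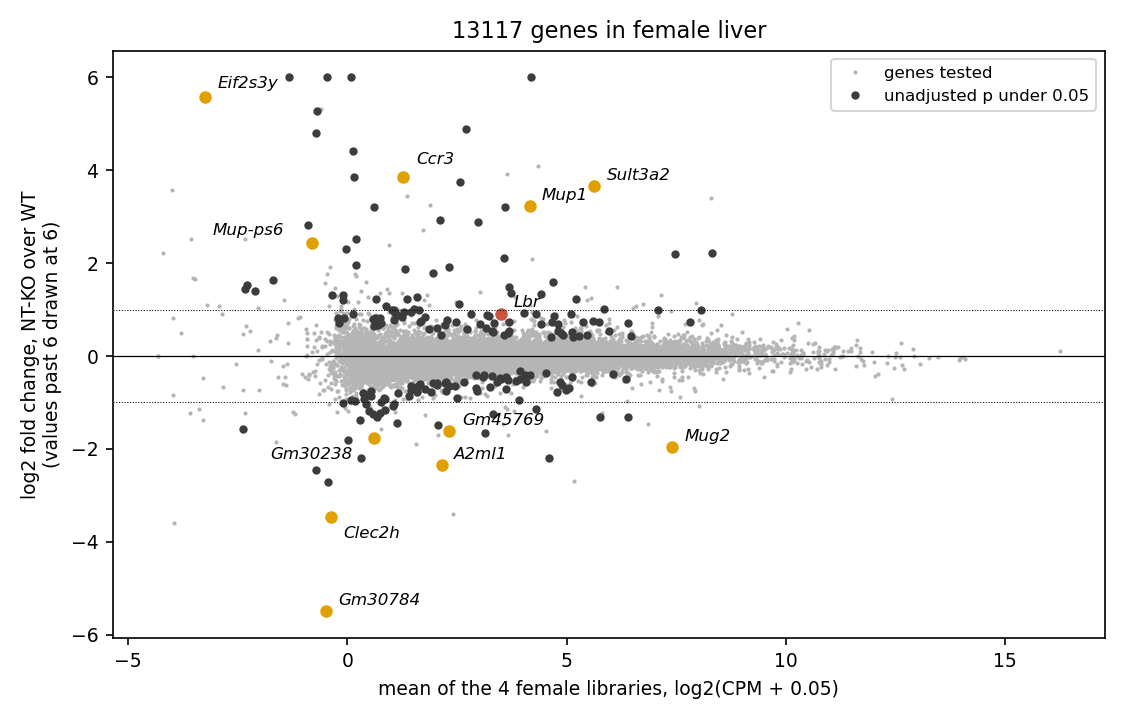
Log2 fold change of female NT-KO over WT (vertical axis) against the mean of the 4 female libraries as log2(CPM + 0.05) (horizontal axis) for the 13117 genes tested. Grey points are all genes, black points those with an unadjusted quasi-likelihood p under 0.05, yellow points the 11 likelihood ratio DEGs and the red point Lbr, dotted lines mark a 2-fold change, and values past 6 are drawn at 6. Most genes lie near 0, and the 203 black points are spread over both directions.

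Ccr3, the receptor for eotaxin chemokines on eosinophils (chr9:124021972-124031689), was the gene that stood out most. It had 18 and 16 counts in the female WT pair and 260 and 238 in the female NT-KO pair, or 0.356 and 0.254 against 4.94 and 3.94 CPM. The libraries of the genotypes were far apart, and the level rose 14.5-fold (log2 fold change 3.86, SE 0.354, FDR = 0.0491 in the quasi-likelihood test, 6.61e-16 in the likelihood ratio test and 1.96e-14 in DESeq2). None of its 50-base stretches occur in another gene. The quasi-likelihood call was marginal, and leaving out any 1 of the 8 libraries ended it, with an FDR between 0.0891 and 0.610 and a log2 fold change between 3.63 and 4.11. In males the order was the opposite, with 228 and 126 counts in the WT pair and 4 and 2 in the NT-KO pair, and the difference between the sexes of 9.70 (SE 0.566) passed the correction (FDR = 0.0014). Each of the 2 sexes therefore held 1 genotype with at least 126 Ccr3 counts per library and 1 with at most 18.

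Genes around Ccr3 were examined in the same way. Of the 9 genes listed from the chemokine receptor cluster of chromosome 9, 5 were tested and Ccr3 alone was past an unadjusted p of 0.05. The monocyte receptor gene Ccr2 stood at 1.94 and 1.62 CPM in WT against 1.79 and 1.66 CPM in NT-KO. None of the 79 genes tested within 10 Mb of Ccr3 was at an unadjusted p under 0.05, a level that 1.55% of all genes passed. The other 7 eosinophil markers, which encode granule proteins and surface receptors, were too low to be tested. Siglecf had at most 6 counts in any female library, Epx and Prg3 at most 1, Il5ra at most 5 and Alox15 at most 11, while Prg2 and Ear6 had 0 in all 4. These 7 markers were too low to follow eosinophils, and the part of eosinophils in the Ccr3 difference was not tested.

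**Figure D2:**
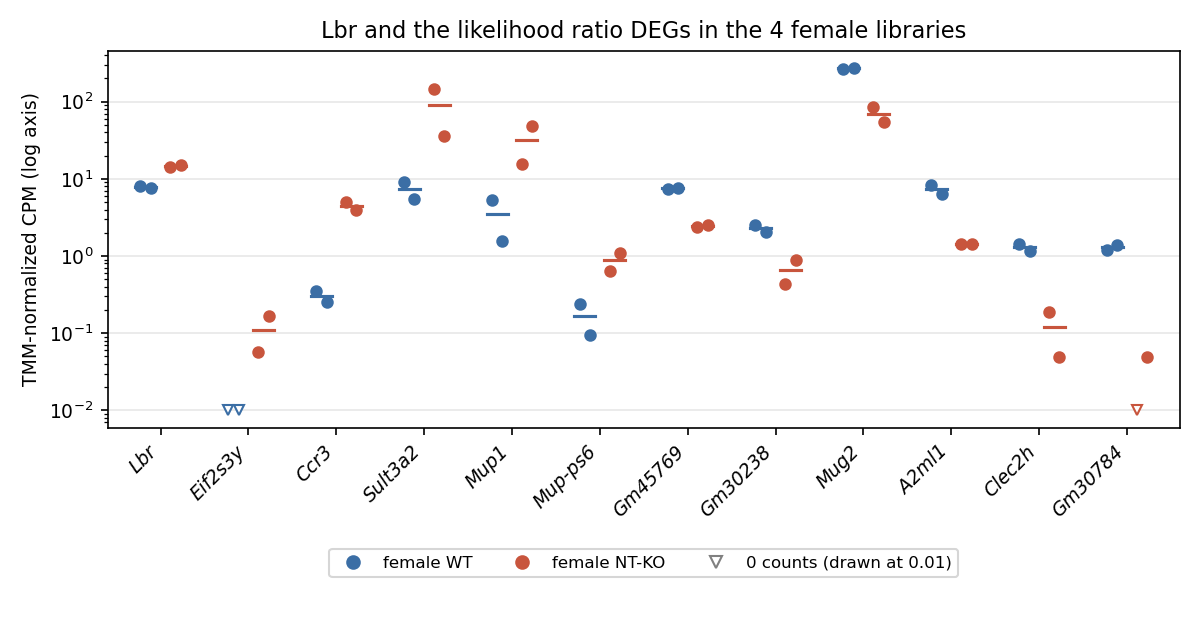
Level of Lbr and of the 11 likelihood ratio DEGs in each of the 4 female libraries, as TMM-normalized CPM on a log axis, ordered by log2 fold change after Lbr. Points are libraries, bars are means of 2 libraries where both are above 0, and open triangles are libraries with 0 counts. The WT and NT-KO points do not overlap for any of the 12 genes, and the NT-KO points of Mup1 and Sult3a2 are further apart than those of Ccr3 or A2ml1.

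The downregulated genes lay mostly on chromosome 6. This chromosome held 5 of the 11 likelihood ratio DEGs among 682 genes tested, and all of these were lower in NT-KO. A2ml1 encodes a relative of alpha-2-macroglobulin, a family of proteins that trap proteases (chr6:128539821-128581608). It had 420 and 403 counts in the WT pair and 76 and 87 in the NT-KO pair, or 8.32 and 6.41 against 1.45 and 1.44 CPM, a 5.09-fold lower level (log2 fold change -2.35, SE 0.354, likelihood ratio FDR = 2.40e-05, quasi-likelihood FDR = 0.924). In males A2ml1 had 699 and 1079 counts in the WT pair and 94 and 127 in the NT-KO pair (log2 fold change -3.12), so that all 4 NT-KO libraries lay below all 4 WT libraries. Clec2h, a C-type lectin gene of the natural killer cell receptor region close to A2ml1, went from 73 and 74 counts to 10 and 3 in females (log2 fold change -3.46, SE 0.676, likelihood ratio FDR = 0.000781) and from 297 and 136 to 34 and 12 in males. Gm45769, an unclassified transcript that overlaps Smim10l1, stood at 7.29 and 7.68 CPM in WT and at 2.36 and 2.53 CPM in NT-KO (log2 fold change -1.61, SE 0.256, likelihood ratio FDR = 0.000781). Its male values were 8.24 and 12.5 CPM in WT and 3.66 and 2.74 CPM in NT-KO. For these 3 genes the test of the difference between the sexes gave unadjusted p-values from 0.146 to 0.83.

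Mug2, a murinoglobulin gene of the same protease inhibitor family 6.51 Mb from A2ml1, was the most abundant of the 11 genes. It had 13520 and 17164 counts in the WT pair and 4412 and 3301 in the NT-KO pair, or 268 and 273 against 83.9 and 54.7 CPM (log2 fold change -1.96, SE 0.36, likelihood ratio FDR = 0.00103, quasi-likelihood FDR = 1). Its male libraries went the other way, from 31.2 and 33.3 CPM in WT to 110 and 49.8 CPM in NT-KO, and the difference between the sexes was -3.27 (SE 0.505), with an FDR of 0.573 in the quasi-likelihood test and 7.37e-06 in the likelihood ratio test. Near copies limit this value, as 50.5% of the 50-base stretches of Mug2 occur in other genes, chiefly Mug-ps1, Mug1 and Mug4-ps. Mug1 itself stood at 1332 and 1106 CPM in WT and 757 and 1237 CPM in NT-KO, which overlap. The list of this family held 7 genes, of which 5 were tested, 4 of these were below 0 and 2 were past an unadjusted p of 0.05, A2ml1 and Mug2. Pzp, the main liver member of the family in the mouse, was measured at 2746 and 2858 CPM in WT and 3061 and 4044 CPM in NT-KO (log2 fold change 0.34, SE 0.238, unadjusted p = 0.187). The family was thus lower at A2ml1 and Mug2 and not throughout.

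Within 10 Mb of A2ml1, 149 genes were tested, and 5 of them were higher and 6 lower at an unadjusted p under 0.05, which is 7.38% against 1.55% over all genes. The window was placed around a gene called in these same data and held 3 further likelihood ratio DEGs, Mug2, Clec2h and Gm45769. Its share is therefore a description and not a test of the region. The lower genes were A2ml1's neighbours Mug2, Mug4-ps, Gm10319, Clec2h, Gm45769 and Ccdc77. Mug4-ps and Gm10319 share 34.9% and 21.2% of their 50-base stretches with other genes, chiefly those of the Mug family, so their reads and those of Mug2 cannot be fully told apart. The higher ones included C1rb and C1s2, which encode serine proteases of the first complement component, with log2 fold changes of 0.73 (SE 0.213) and 0.91 (SE 0.283). Gucy2c, the receptor for the gut peptides guanylin and uroguanylin, was at 1.39 and 1.27 CPM in WT and 2.17 and 3.13 CPM in NT-KO (log2 fold change 1.00, SE 0.296). The male libraries held 17 and 16 counts of Gucy2c in WT against 48 and 49 in NT-KO (unadjusted p = 0.00213). The median log2 fold change of these 149 genes was 0.00, so the region did not shift as a whole. C1rb shares 60.5% and C1s2 26.9% of their 50-base stretches with other genes, which makes their values less certain.

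The major urinary proteins (MUPs), lipocalins that the liver secretes and that carry pheromones in urine, differed in both directions. Their genes lie side by side on chromosome 4 and are near copies of each other. The lines below give the first 60 coding bases of 5 of them, which encode the secretion signal, with the bases that differ among the 5 in capitals, to show how little separates one gene's reads from another's.
Mup1: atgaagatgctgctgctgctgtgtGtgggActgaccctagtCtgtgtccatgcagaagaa
Mup2: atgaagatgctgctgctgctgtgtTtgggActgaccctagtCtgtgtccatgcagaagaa
Mup9: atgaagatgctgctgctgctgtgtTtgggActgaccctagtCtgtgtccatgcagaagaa
Mup12: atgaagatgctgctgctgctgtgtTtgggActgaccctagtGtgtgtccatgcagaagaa
Mup14: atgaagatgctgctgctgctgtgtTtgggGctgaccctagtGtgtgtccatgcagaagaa
Over their 543 coding bases these 5 genes were 99.1% to 99.6% identical, and 61.6% (Mup1) to 85.4% (Mup12) of the 50-base stretches of their transcripts occur in other genes. How reads that match several genes were handled in counting is not given in the sources used here, so a level assigned to 1 MUP gene may hold reads of another.

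Mup1 (chr4:60498012-60501960) was the likelihood ratio DEG of the family, with 270 and 98 counts in the WT pair and 808 and 2946 in the NT-KO pair, or 5.35 and 1.56 against 15.4 and 48.8 CPM. Both NT-KO libraries lay above both WT libraries, and the mean was 9.35-fold higher (log2 fold change 3.23, SE 0.652, likelihood ratio FDR = 0.00213, quasi-likelihood FDR = 1). The replicates themselves were several-fold apart in each genotype, and leaving out single female libraries moved the log2 fold change of Mup1 between 2.16 and 4.36. Mup-ps6, a pseudogene next to Mup1, was also called by the likelihood ratio test after entering through the male libraries, with 12 and 6 counts in the WT pair and 34 and 67 in the NT-KO pair, and 92.7% of its stretches occur in other genes. Of the 22 MUP genes tested, 5 were higher and 1 was lower at an unadjusted p under 0.05, against 0.869% higher and 0.679% lower of all genes. Mup2, Mup12, Mup14 and Mup5 had log2 fold changes of 2.19, 1.36, 1.60 and 2.94, while Mup11 went from 65.6 and 13.7 CPM to 7.62 and 9.60 CPM (log2 fold change -2.20, SE 0.798, unadjusted p = 0.0243). Mup9 had 4648 and 983 counts in the WT pair and 15933 and 50680 in the NT-KO pair, and this change of 3.41 did not pass (unadjusted p = 0.077), since its replicates were several-fold apart.

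The sum over the family overlapped between the genotypes. Sums over lists here are TMM-scaled CPM of all counts in a library, not only of the genes tested. On this scale the 22 genes together held 7926 and 6150 in the WT pair against 5815 and 7363 in the NT-KO pair. Their median log2 fold change was 0.05. Mup3, the most abundant member in these livers, was at 5381 and 4275 CPM in WT and 3616 and 3599 CPM in NT-KO (log2 fold change -0.42, SE 0.224, unadjusted p = 0.0971). In the 4 male libraries Mup1 ran from 198 to 310 CPM, above both female NT-KO libraries, whereas the male levels of Mup2 (306 to 1883 CPM) and Mup9 (81.5 to 4792 CPM) overlapped those of female NT-KO. Y-linked transcripts were nearly absent from the same libraries. Eif2s3y, a translation initiation factor gene of the Y, had 0 counts in both WT and 3 and 10 in the NT-KO libraries, a level at least 2.08-fold higher against the floor of 3 counts and 0.0946% and 0.275% of the male mean. It entered the test only through the male libraries, so its likelihood ratio call (FDR = 0.0426) is not taken as a result. Ddx3y had 3 counts, Kdm5d 1 and Uty 0 in NT-KO replicate 2, against 1 count of Uty in each WT library. The part of these counts in the MUP result was not tested.

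**Figure D3:**
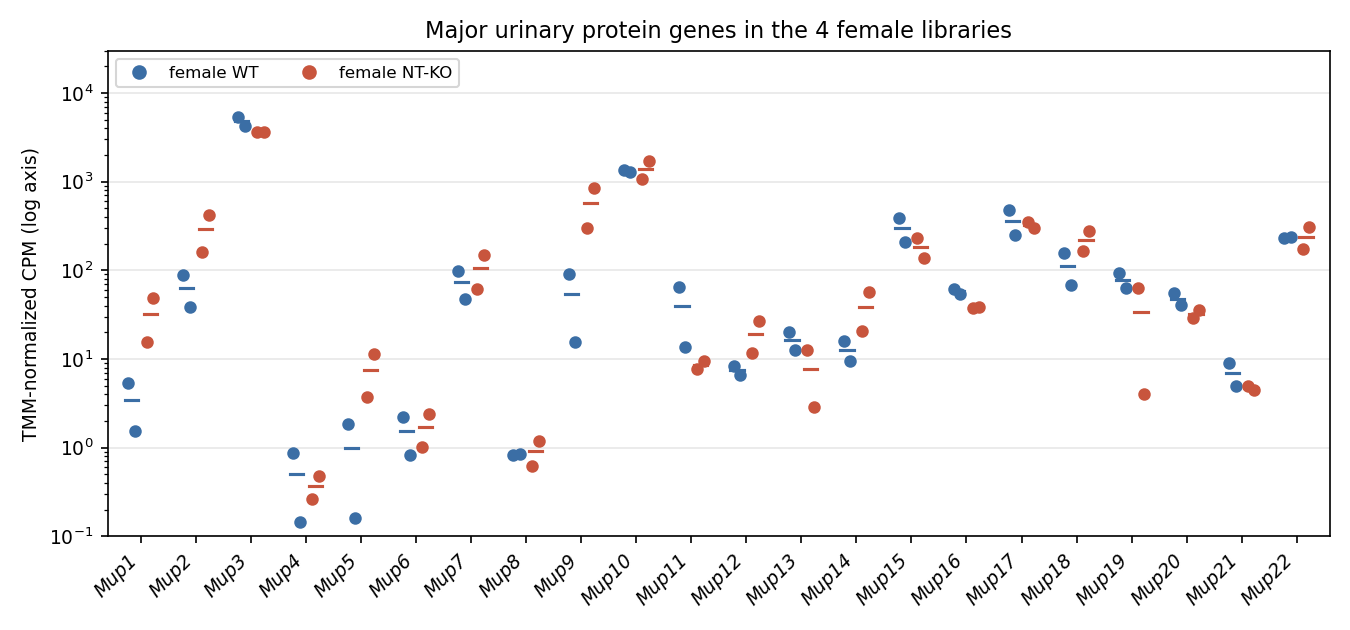
Level of the 22 MUP genes in the 4 female libraries as TMM-normalized CPM on a log axis, with WT in blue and NT-KO in red. Points are libraries and bars are means of 2 libraries. The NT-KO points lie above the WT points for Mup1, Mup2, Mup5, Mup9, Mup12, Mup14 and Mup18 and below them for Mup3, Mup11, Mup13, Mup16 and Mup20, and replicates of 1 genotype are often several-fold apart.

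Sult3a2 and Sult3a1, a pair of sulfotransferase genes on chromosome 10 that are used almost only by female mouse liver, were higher in NT-KO. Sult3a2 had 463 and 339 counts in the WT pair and 7746 and 2157 in the NT-KO pair, or 9.17 and 5.39 against 147 and 35.7 CPM (log2 fold change 3.65, SE 0.74, likelihood ratio FDR = 0.028, quasi-likelihood FDR = 1). Sult3a1 stood at 147 and 79.6 CPM in WT and 752 and 301 CPM in NT-KO (log2 fold change 2.22, SE 0.826, unadjusted p = 0.0272). In both genes NT-KO replicate 1 was the highest library, and without it the log2 fold change of Sult3a2 was 2.30. Their coding sequences are 90.9% identical, and few of their 50-base stretches are shared with another gene (7.72% for Sult3a2 and 6.15% for Sult3a1). The other 9 sulfotransferase genes tested did not reach an unadjusted p of 0.05.

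Other genes that liver expresses in a sex-dependent way lay on both sides of 0. Of 30 female-biased genes tested, 18 were higher, 12 lower and 3 past an unadjusted p of 0.05, all of these higher (Sult3a2, Sult3a1 and the cytochrome P450 gene Cyp2a22), with a median log2 fold change of 0.10. Cyp2a22 went from 71.4 and 112 CPM in WT to 226 and 138 CPM in NT-KO. Of 28 male-biased genes tested, 19 lay above and 9 below 0, and 2 were higher (Mup12 and Cyp4a12b) and 1 lower (Cyp2d9) at that level, with a median of 0.26. Cyp4a12b, a fatty acid hydroxylase of male liver, entered the test only through the male libraries and had 8 and 3 counts in the WT pair and 10 and 20 in the NT-KO pair. Single libraries moved these medians, to -0.06 for the female-biased list without NT-KO replicate 1 and to 0.03 and 0.06 for the male-biased list without NT-KO replicate 2 or WT replicate 2. Over all genes tested, 50.3% had a log2 fold change above 0, and 0.869% were higher and 0.679% lower at an unadjusted p under 0.05.

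The remaining likelihood ratio DEGs were lower, and both are transcripts of no known function. Gm30238 (chr12:112690986-112693588) had 129 and 128 counts in the WT pair and 23 and 54 in the NT-KO pair (log2 fold change -1.77, SE 0.383, FDR = 0.0316). Gm30784, a long noncoding RNA at chr6:141866358-141875220, had 60 and 88 counts in the WT pair and 0 and 3 in the NT-KO pair, at least 24.3-fold lower against the floor of 3 counts. The male NT-KO libraries had 88 and 4 counts of Gm30784 and were themselves far apart.

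Among the genes with the smallest unadjusted p that averaged at least 5 CPM in a genotype, 8 higher and 8 lower ones were examined. Those higher besides Lbr, Mup1 and Sult3a2 were Lyplal1, Tfcp2l1, Ren1 and the pseudogenes Glns-ps1 and Rpl3-ps1. Lyplal1, a lysophospholipase-like gene 4.27 Mb from Lbr, stood at 22.4 and 20.6 CPM in WT and 33.2 and 35.9 CPM in NT-KO (log2 fold change 0.69, SE 0.148, unadjusted p = 0.00158), with tight replicates. Ren1, which encodes renin, had 44 and 1 counts in the WT pair and 1021 and 341 in the NT-KO pair, and in males 816 and 567 in the WT pair and 99 and 627 in the NT-KO pair. Its log2 fold change of 4.89 (SE 1.25) therefore varied between 3.73 and 9.42 when single female libraries were left out. The transcription factor gene Tfcp2l1 had 4.40 and 5.26 CPM in WT and 10.8 and 7.48 CPM in NT-KO (log2 fold change 0.92, SE 0.231). Rpl3-ps1 shares 95.7% of its 50-base stretches with Rpl3 and its other copies, and Glns-ps1 33% with Glul and another gene.

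Those lower besides A2ml1, Gm45769 and Mug2 were Cep85, Lgals1, Inf2, Gm10319 and Slc16a11. Lgals1, which encodes the sugar-binding protein galectin-1, went from 13.4 and 14.5 CPM in WT to 6.69 and 5.12 CPM in NT-KO (log2 fold change -1.24, SE 0.345, unadjusted p = 0.00683). Its male libraries went from 4.32 and 4.47 CPM to 5.62 and 12.7 CPM, and the difference between the sexes had an FDR of 0.573 in the quasi-likelihood test and 0.0114 in the likelihood ratio test. Cep85, a centrosomal protein gene, stood at 58.6 and 96.7 CPM in WT and 26.5 and 36.4 CPM in NT-KO (log2 fold change -1.30, SE 0.352), and was lower in male NT-KO too (log2 fold change -1.58). Inf2, a formin that shapes actin filaments, changed by 1.36-fold with replicates close together, at 39.5 and 40.3 CPM in WT and 29.1 and 29.7 CPM in NT-KO. None of these genes passed the correction in any of the 3 tests. Pseudogenes made up 4.44% of the genes tested and 14.8% of those at an unadjusted p under 0.05, and 24 of these 30 pseudogenes were higher.

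X-linked genes as a group differed between the genotypes by less than replicates did. The 381 X-linked genes tested had a median log2 fold change of -0.0018 and the 12702 autosomal genes one of 0.0012, a difference of -0.0030. The same difference was 0.0815 between the 2 NT-KO libraries and -0.0239 between the 2 WT libraries, both larger in size. Of the X-linked genes 189 were higher and 192 lower, and no X-linked gene was a DEG in the quasi-likelihood or the likelihood ratio test. Both NT-KO libraries lay above both WT libraries for 44 of the 381 and below for 53, against 12.2% above and 14.2% below among all genes. At an unadjusted p under 0.05, 7 were higher and 0 lower in the quasi-likelihood test, against 0.869% higher and 0.679% lower of all genes. In both directions together this is 1.84% of the X-linked genes against 1.55% of all genes.

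**Figure D4:**
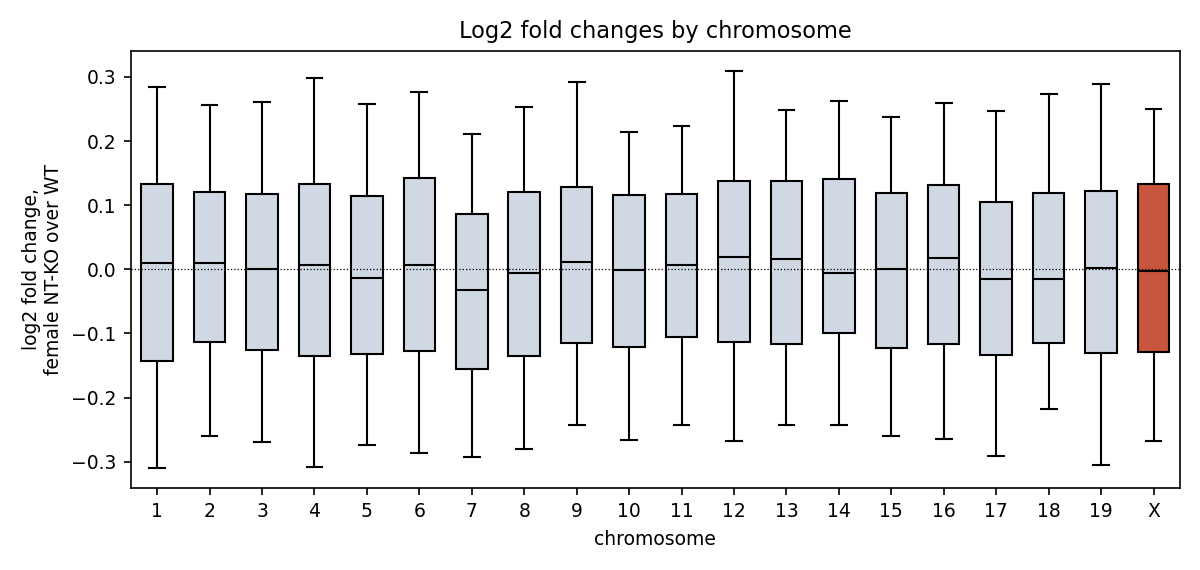
Log2 fold change of female NT-KO over WT by chromosome, with boxes from the lower to the upper quartile, the median as a line and whiskers from the 10th to the 90th percentile of the genes tested. The X (red, 381 genes) has its median at -0.0018, within the range of the autosomal medians, which run from -0.032 on chromosome 7 to 0.020 on chromosome 12.

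Xist, the RNA that coats the inactive X, was abundant in every female library, with 52888 and 59845 counts in the WT pair and 50913 and 51506 in the NT-KO pair. At 1047 and 952 CPM against 968 and 853 CPM the genotypes overlapped (log2 fold change -0.13, SE 0.493, unadjusted p = 0.791). An interval of 1 SE around this value spans changes in both directions. That SE rests on a spread estimated over all 8 libraries and is not the spread of the female libraries alone. The male libraries held 41 and 136 Xist counts in the WT pair and 50 and 69 in the NT-KO pair. Of 16 genes known to escape inactivation, 15 were tested, with a median log2 fold change of -0.05, and Mid1 was the 1 past an unadjusted p of 0.05. Eif2s3x, the X copy of the initiation factor gene, stood at 95.6 and 104 CPM in WT and 97.2 and 116 CPM in NT-KO. Kdm6a, a histone demethylase gene, stood at 15.7 and 16.8 against 16.6 and 20.1 CPM. A second list, the X-linked qRT-PCR panel, held 13 genes, of which 12 were tested and only Mid1 was past that level.

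Mid1, an E3 ubiquitin ligase gene at the edge of the pseudoautosomal region, had 105 and 129 counts in the WT pair and 731 and 112 in the NT-KO pair. NT-KO replicate 1 alone was high, the genotypes overlapped, and without that library the log2 fold change of 1.93 became -0.16. The male libraries had 2088 and 1870 counts in the WT pair and 169 and 97 in the NT-KO pair, and there both NT-KO libraries were the lower ones. A part of its sequence, 28.7% of the 50-base stretches, occurs in other genes. Rpl3-ps1, named above, was the X-linked gene with the smallest unadjusted p (0.00541), at 34.6 and 37.1 CPM in WT and 54.0 and 67.5 CPM in NT-KO. The other X-linked genes past that level, named here after their values were seen, were Lonrf3, Gm21887, Tmem28, Tlr13 and Ammecr1, with log2 fold changes from 0.65 to 3.74. Gm21887 gave the largest of these, with 79 and 7 counts in the WT pair and 913 and 268 in the NT-KO pair.

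Genes of the nuclear lamina and inner nuclear membrane, the setting of LBR, did not move with Lbr. Of 25 tested, 17 were higher, 8 lower and Lbr was the 1 past an unadjusted p of 0.05, with a median log2 fold change of 0.04. The lamin genes Lmna and Lmnb1 had log2 fold changes of 0.07 (SE 0.175) and 0.27 (SE 0.252). Sun2, which links the lamina to the cytoskeleton, stood at 71.2 and 66.6 CPM in WT and 48.6 and 73.3 CPM in NT-KO. Torsin genes of the nuclear envelope were as close, with Tor1a at 56.5 and 58.7 CPM in WT and 57.5 and 66.0 CPM in NT-KO.

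Genes of cholesterol biosynthesis, the pathway of LBR's reductase part, lay slightly above 0 in the pooled fit, by an amount that single libraries moved. All 26 had a log2 fold change above 0, with a median of 0.15, and none was at an unadjusted p under 0.05. Both NT-KO libraries exceeded both WT libraries for 2 of the 26, against 12.2% of all genes. The median was -0.04 without NT-KO replicate 1, 0.04 without WT replicate 1, 0.30 without WT replicate 2 and 0.35 without NT-KO replicate 2. Tm7sf2, the gene of the other sterol reductase that acts at the same step as LBR, had 167 and 195 CPM in WT and 220 and 169 CPM in NT-KO. In males the median of the list was 0.64.

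Genes of B lymphocytes were lower in both female NT-KO livers than in both WT livers. All 9 of the B lymphocyte markers tested were placed so, against 14.2% of all genes, and their median log2 fold change was -0.89. Of these markers, 3 were at an unadjusted p under 0.05, where 0.679% of all genes were lower. Cd79a, a signalling chain of the B cell receptor, had 116 and 131 counts in the WT pair against 44 and 82 in the NT-KO pair (log2 fold change -0.99, SE 0.359, unadjusted p = 0.0242, quasi-likelihood FDR = 1). Ighd, the immunoglobulin D heavy chain, had 144 and 167 against 47 and 108 counts. The immunoglobulin M gene Ighm was at 14.7 and 15.9 CPM in WT and 5.46 and 7.42 CPM in NT-KO, but with an unadjusted p of 0.113. Sums over the 10 markers, in TMM-scaled CPM of all counts, were 36.9 and 33.9 in WT against 15.5 and 19.8 in NT-KO. In bulk liver RNA, fewer B lymphocytes and less of these RNAs per cell cannot be told apart. None of the 9 passed the correction over all genes in any test, and in males the median was 1.12, with WT lower than NT-KO.

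MHC class II genes, which present antigen on B lymphocytes, dendritic cells and macrophages, followed the same order. All 9 tested had both NT-KO libraries below both WT libraries, with a median log2 fold change of -0.56, and H2-Ob, H2-Ab1, H2-Aa and Cd74 were at an unadjusted p under 0.05. H2-Ob, a chaperone subunit found mainly in B lymphocytes, had 98 and 157 counts in the WT pair and 34 and 68 in the NT-KO pair (log2 fold change -1.32, SE 0.371). Cd74, the invariant chain, was at 89.6 and 103 CPM in WT and 68.2 and 67.6 CPM in NT-KO (log2 fold change -0.50, SE 0.218). The T lymphocyte genes Cd4 and Lck, the only 2 of 8 that could be tested, were lower in both NT-KO libraries too. In males the median log2 fold change of Cd4 and Lck was 0.08. The 8 together summed, in TMM-scaled CPM of all counts, to 7.20 and 5.78 in the WT pair against 3.70 and 4.36 in the NT-KO pair. Kupffer cell markers lay near 0, with a median of -0.01 over 7 genes and Clec4f at 123 and 116 against 117 and 121 CPM. Of the 13 neutrophil markers 3 were tested (S100a8, S100a9 and Csf3r), none past an unadjusted p of 0.05, and the 13 together held 298 and 311 counts in the WT pair against 216 and 359 in the NT-KO pair. B lymphocytes express the genes of both lists.

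**Figure D5:**
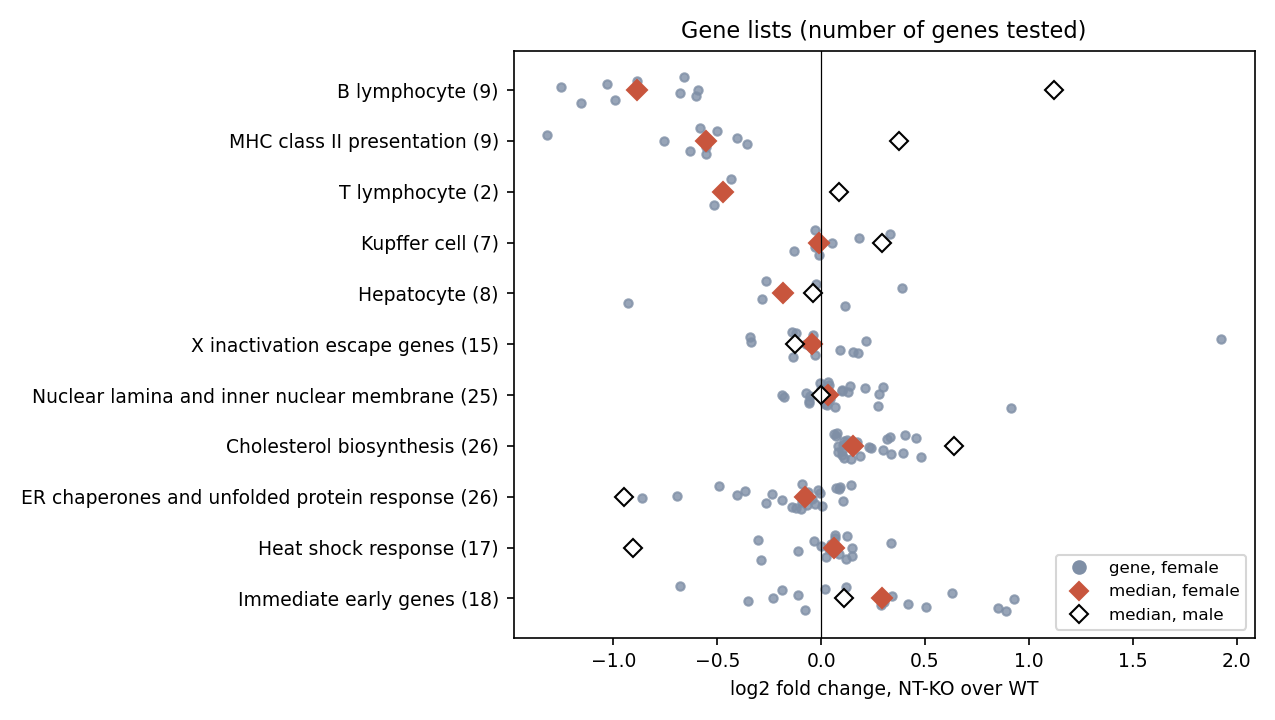
Log2 fold change of NT-KO over WT for the members of 11 gene lists, with the number of genes tested in brackets. Grey-blue points are genes in females, red diamonds their medians and open diamonds the medians of the same genes in males. The B lymphocyte and MHC class II genes lie below 0 in females with medians of -0.89 and -0.56, the cholesterol genes lie just above 0, and the escape gene far to the right is Mid1.

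Several other lists held no gene at an unadjusted p under 0.05, a level that only 1.55% of all genes passed. Endoplasmic reticulum chaperones (26 genes, median log2 fold change -0.08), heat shock genes (17, 0.06), clock genes (16, -0.02), interferon response (23, -0.02), cell cycle (18, -0.04), fatty acid synthesis (16, 0.23), PPAR alpha targets (19, -0.10) and acute phase genes (20, 0.16) had none. With single female libraries left out, the medians ran from -0.13 to 0.84 for fatty acid synthesis, from -0.35 to 0.10 for PPAR alpha targets and from -0.03 to 0.20 for acute phase genes, so their signs turned. Hspa5, the main chaperone of the endoplasmic reticulum, was at 582 and 435 CPM in WT and 456 and 496 CPM in NT-KO. Of 25 complement genes tested 19 lay above 0, 9 had both NT-KO libraries above both WT libraries (12.2% of all genes did) and C1rb and C1s2 were past that level. Of 18 immediate early genes 12 lay above 0, 5 did not overlap and were higher (12.2% of all genes did so), and Jun and Atf3, which respond to stress, were past that level. The median log2 fold change of this list, 0.30, ran from -0.03 to 0.68 with single female libraries left out, so its sign turned too. Jun had 8.56 and 4.76 CPM in WT and 14.6 and 9.37 CPM in NT-KO. Hepatocyte markers (8 genes, median -0.18), stellate cell markers (8, -0.04) and bile duct markers (5, -0.01) had none past that level, and of the sinusoidal endothelium list (7, -0.07) only Lyve1 was lower, at 6.65 and 6.59 CPM in WT and 5.13 and 3.38 CPM in NT-KO. Alb, the albumin gene and the defining transcript of hepatocytes, held 3977165 to 5184672 counts in the female libraries. Of the skeletal muscle genes, Acta1 had 30 and 0 counts in the WT pair and 70 and 238 in the NT-KO pair and Mylpf, the other of 5 that was tested, had 58 and 54 against 85 and 72 (log2 fold change 0.49, SE 0.37, unadjusted p = 0.225).

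Near Lbr itself, 119 genes within 10 Mb were tested, and 4 were higher and 2 lower at an unadjusted p under 0.05, which is 5.04% against 1.55% over all genes. The higher ones were Lyplal1, the methyltransferase gene Smyd2, the stress factor Atf3 and Ifi202b, and the lower ones Ints7, a subunit of the Integrator complex, and Gm37254. Ints7 stood at 20.3 and 18.1 CPM in WT and 13.7 and 14.8 CPM in NT-KO (log2 fold change -0.43, SE 0.152). It was lower in male NT-KO as well (log2 fold change -0.53), as was Gm37254 (-0.28). The higher genes Lyplal1, Smyd2 and Atf3 lay on the other side of 0 in males, with log2 fold changes of -0.15, -0.16 and -0.48. Ifi202b, an interferon-inducible gene that differs between mouse strains, had 0 counts in both WT and in NT-KO replicate 2 and 73 in NT-KO replicate 1, a mean at least 13.0-fold above the floor of 3 counts that 1 library made. In males it had 62 and 58 counts in the WT and 0 in both NT-KO libraries. It entered the test only with the help of the male WT libraries, so the share near Lbr includes a gene carried by 1 female library. The genetic background of single animals beyond the strain label was not tested, for this gene or for Ccr3, Mid1 and Ren1, whose order of genotypes also differed between the sexes. NT-KO replicate 1 was also the library that was high for Mid1.

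The difference between the sexes in the effect of NT-KO was tested for each gene, to see what the female livers did not share with the male ones. It passed the FDR for 2 genes in the quasi-likelihood test (0.0152%), Ccr3 and Gstp3, and for 46 in the likelihood ratio test. Gstp3, a glutathione S-transferase, stood at 28.5 and 29.3 CPM in female WT and 27.0 and 24.7 CPM in female NT-KO, while in males it went from 18.1 and 11.8 to 714 and 445 CPM. The female log2 fold change was -0.16 (SE 0.273) and the difference between the sexes -5.44 (SE 0.411, FDR = 0.00543). Ppp1r9a, which encodes the actin-binding neurabin, and the carboxylesterase gene Ces2b were next, with Mug2. In females Ppp1r9a stood at 9.59 and 7.65 CPM in WT and slightly below, at 6.50 and 7.45 CPM, in NT-KO (unadjusted p = 0.115). Ces2b had overlapping levels of 0.178 and 0.429 against 0.361 and 0.397 CPM, and neither gene passed the quasi-likelihood FDR for the difference (0.241 and 0.573). Of these 5 genes, Ccr3 and Mug2 were the ones with a female difference past an unadjusted p of 0.05.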

How the data were processed

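Per the labels and the study's methods, total liver RNA was made into TruSeq libraries, and the authors trimmed reads with cutadapt, aligned them to GRCm38 with STAR 2.6.1a and used featureCounts and Ensembl gene models to count them. The deposited values are these raw counts, not normalized or filtered. The strand setting of the counting and its handling of reads that match several genes are not given in the sources used here. Column names matched the sample labels, and 0 columns were left out. Of 49671 IDs, 49412 matched the GRCm38 GENCODE vM21 annotation, as did all but 21 of those tested.

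From the counts, genes at or above 1 CPM in 2 or more of 8 libraries were kept, without rRNA, miRNA and mitochondrial genes. Library sizes were scaled by TMM, and printed CPM of single genes include this scaling and take the counts of the tested genes as library size. Sums over lists include the scaling too, but take all counts of a library. The depth limit is CPM of all counts without the scaling. edgeR 4.0.16 (R 4.3.3) fitted 4 group means to all 8 libraries (common biological coefficient of variation 0.217), and NT-KO vs WT in females and its difference from males were tested by quasi-likelihood F statistics with p-values adjusted after Benjamini-Hochberg. The study names edgeR's glmFit, so its likelihood ratio test, and DESeq2 1.42.0, were alternatives, with others on scaling, filter, samples, thresholds and each library left out. The methods were tested on simulated counts. SEs were derived from the log2 fold change and its F (absolute change over root F). Groups at or under 3 counts give only a bound on a fold.

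Named genes follow a rule: Lbr, Xist, 4 Y-linked genes, all quasi-likelihood or likelihood ratio DEGs, the 8 higher and 8 lower genes of smallest p that averaged at least 5 CPM in a genotype and whose libraries did not overlap, the 5 genes of smallest p for the sex difference, up to 5 members past p under 0.05 and the 4 most abundant of each of 27 pathway and 13 marker lists, and genes within 10 Mb of Lbr, Ccr3 and A2ml1 past that p. Lmna, Lmnb1, Kdm6a, the MUPs Mup5, Mup13, Mup16, Mup18 and Mup20, the untested markers, genes named for shared or overlapping sequence and the X-linked genes said to be so were named outside it, after their values were seen, and a few genes are not reported here. The genes described and the lists were chosen with earlier results of these data known. Shared sequence was measured as the share of a gene's 50-base transcript stretches found, on either strand, in another gene.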

Additional observations from a re-analysis of the deposited data

Results flagged for a closer look

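The difference between the sexes in the log2 fold change of NT-KO over WT passed the FDR of the quasi-likelihood test for 2 genes. For Ccr3 it was 9.698, with higher counts in both female NT-KO than in both female WT libraries and the reverse in all 4 male libraries. For Gstp3 it was -5.439, with levels of 28.5 and 29.3 CPM in female WT and 27.0 and 24.7 CPM in female NT-KO and higher levels in both male NT-KO than in both male WT libraries.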

How the results depend on the processing

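The count of female DEGs, 1 in the quasi-likelihood test, was 11 with the likelihood ratio test, 5 with DESeq2 and 172 with every gene of at least 1 count tested, and 0 with the 4 female libraries alone or an FDR of at most 0.01. Leaving out 1 library gave 0 to 0. Added after seeing the data, the likelihood ratio test gave 9 DEGs with the filter met in females, 33 in the female libraries alone and 11 to 21 with single female libraries left out (13 without WT replicate 1; 1 higher and 10 lower without WT replicate 2; 20, of which 15 higher and 5 lower, where NT-KO replicate 2 was dropped). The female WT and NT-KO libraries of the same number share only a number (correlation of deviations across genes 0.023), and a replicate block left 0 female DEGs. The difference between the sexes, 2 genes, counted 46 with the likelihood ratio test, 62 with DESeq2, 552 without the filter and 1 to 7 with 1 library left out. The X-linked minus autosomal median ran from -0.047 to 0.061 over single libraries left out, both ends from the NT-KO libraries. The log2 fold change of Mid1 became -0.1552 without female NT-KO replicate 1 (2.749 without NT-KO replicate 2). That of Ces2b became -0.1759 without female WT replicate 1 (1.081 without WT replicate 2). No other sign turned among the 54 named genes refitted under these alternatives. Genes named only as abundant list members, genes at the floor of 3 counts and genes named outside the rule were not among the 54, and their signs were not followed. The causes were not tested. With 2 libraries per genotype, spread more than depth limits the values.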
